A study of Mus musculus with 9 samples.

Results

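The lysosome genes examined here were 42 genes for the parts of one organelle, out of 24187 genes with a value in these bone marrow-derived macrophage libraries. They were chosen by a list of names and roles, not by a measured value. The list held 6 genes for the membrane part of the proton pump, 8 for its catalytic part and 2 for accessory proteins. It also held 9 for cathepsins and legumain, 9 for glycosidases and their cofactors, and 8 for lysosomal membrane proteins. All 42 genes were present in both deposited tables and all 42 passed the filter on low values in each comparison.

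RNA was sequenced from 9 libraries in 3 groups of 3. All macrophages came from bone marrow of C57BL/6 mice aged 8 weeks and were grown for 6 days with 10 ng/ml M-CSF, the growth factor that drives macrophage differentiation. The control group was then kept in complete DMEM for 6 h, the LPS group received 500 ng/ml lipopolysaccharide, a bacterial wall component that activates macrophages, for 6 h, and the LPS + NCT503 group received the same LPS together with 50 µM NCT503, an inhibitor of PHGDH, the first enzyme of serine synthesis. No group received NCT503 alone, so every NCT503 value below comes from cells that also had LPS, and the labels name no vehicle. They do not say whether the 3 libraries of a group came from separate mice, separate cultures or pooled animals, so the p-values measure only the spread between these libraries.

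Lysosomes break down protein, sugar chains and lipids in an acid lumen. The acid comes from the V-ATPase, a rotary pump in which the cytosolic V1 part splits ATP and the V0 part in the membrane carries protons. Cells can switch the pump on and off by joining and parting V1 and V0, and macrophages use it to acidify phagosomes. Many lysosome genes carry a short DNA word in their promoters, the E-box type site of the TFEB and TFE3 transcription factors.

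The libraries held 20295862 to 23599685 assigned reads each. Values per library are given for replicates 1, 2 and 3 in that order as normalised reads, that is reads divided by the library's size factor, on 1 scale for all 9 libraries. Differences are log2 fold changes with their standard error (SE), and a gene was called at an adjusted p under 0.05 in limma with Benjamini-Hochberg adjustment over all genes, which gave every p below. Against the macrophage label, the summed level of 10 macrophage markers was 324856 to 413630 normalised reads in the control group, 476387 to 564126 with LPS and 231074 to 303807 with LPS + NCT503, and no marker was at 0. In each of 2 libraries, control replicate 1 and LPS + NCT503 replicate 2, 53 genes lay over 4-fold from both other libraries of the group, against 0 to 4 genes in the other libraries. None of the 42 lysosome genes was among them. The reads per kilobase of gene are used wherever 1 gene is set against another.

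LPS moved single pump subunits and enzymes in both directions. Of the 42 genes, 7 were called higher and 6 lower than in the control group, 16.7% and 14.3% of the list. Over all 19975 genes tested the shares were 20.5% higher and 21.4% lower, 41.8% in all. The median difference was 0.06 for the 42 genes and -0.05 for all genes tested. The split depended on scaling: after scaling by library totals (CPM), 3 genes were called higher and 32 lower, beside 10.3% and 42% of all genes, and after quantile normalisation 3 higher and 31 lower, beside 18.4% and 23%. CPM moved the median of all genes by -0.63, TMM moved it by -0.11 and quantile normalisation by -0.05, while the lysosome genes moved by a median of -0.70, -0.10 and -0.78. Atp6v0b, Atp6v1e1 and Ctsc were the 3 genes called higher under all of these scalings.

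The second comparison shares its LPS libraries with the first. NCT503 on top of LPS raised 9 of the 42 genes (21.4%) and lowered 7 (16.7%), with 16.9% higher and 15.7% lower over all 19795 genes tested, 32.6% in all. The median was -0.07 for the 42 genes and 0.08 for all genes. By role, 5 of 8 V1 genes rose and none fell, while 4 of 9 genes of the glycosidase list fell and 2 rose. All 9 rises were also called after CPM and after quantile normalisation, and of the 7 falls only that of Laptm4a was not. CPM gave 12 higher and 6 lower (22.3% and 10.8% of all genes), with a shift of 0.23 in the median of all genes, and quantile normalisation gave 15 higher and 6 lower (15.3% and 16.5%). Without LPS + NCT503 replicate 2, 9 genes were higher and 8 lower, beside 18.9% and 17.9% of all genes. Atp6v1g1 was then not called, Atp6ap2 was called higher and Ctss lower.

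Against the control group, which shares its libraries with the first comparison, LPS + NCT503 gave 15 of the 42 genes higher (35.7%) and 7 lower (16.7%), beside 20.7% and 19.7% of 19930 genes tested, 40.4% in all. The medians were 0.11 for the list and 0.05 for all genes. CPM turned this split to 10 higher and 21 lower, beside 12.4% and 33.3% of all genes, with a shift of -0.43 in their median, and quantile normalisation gave 8 higher and 22 lower, beside 18% and 24%. Without LPS + NCT503 replicate 2 the counts were 16 and 8, beside 23% and 22.5% of all genes, with Atp6v0d2 added among the higher and Grn among the lower.

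**Figure D1:**
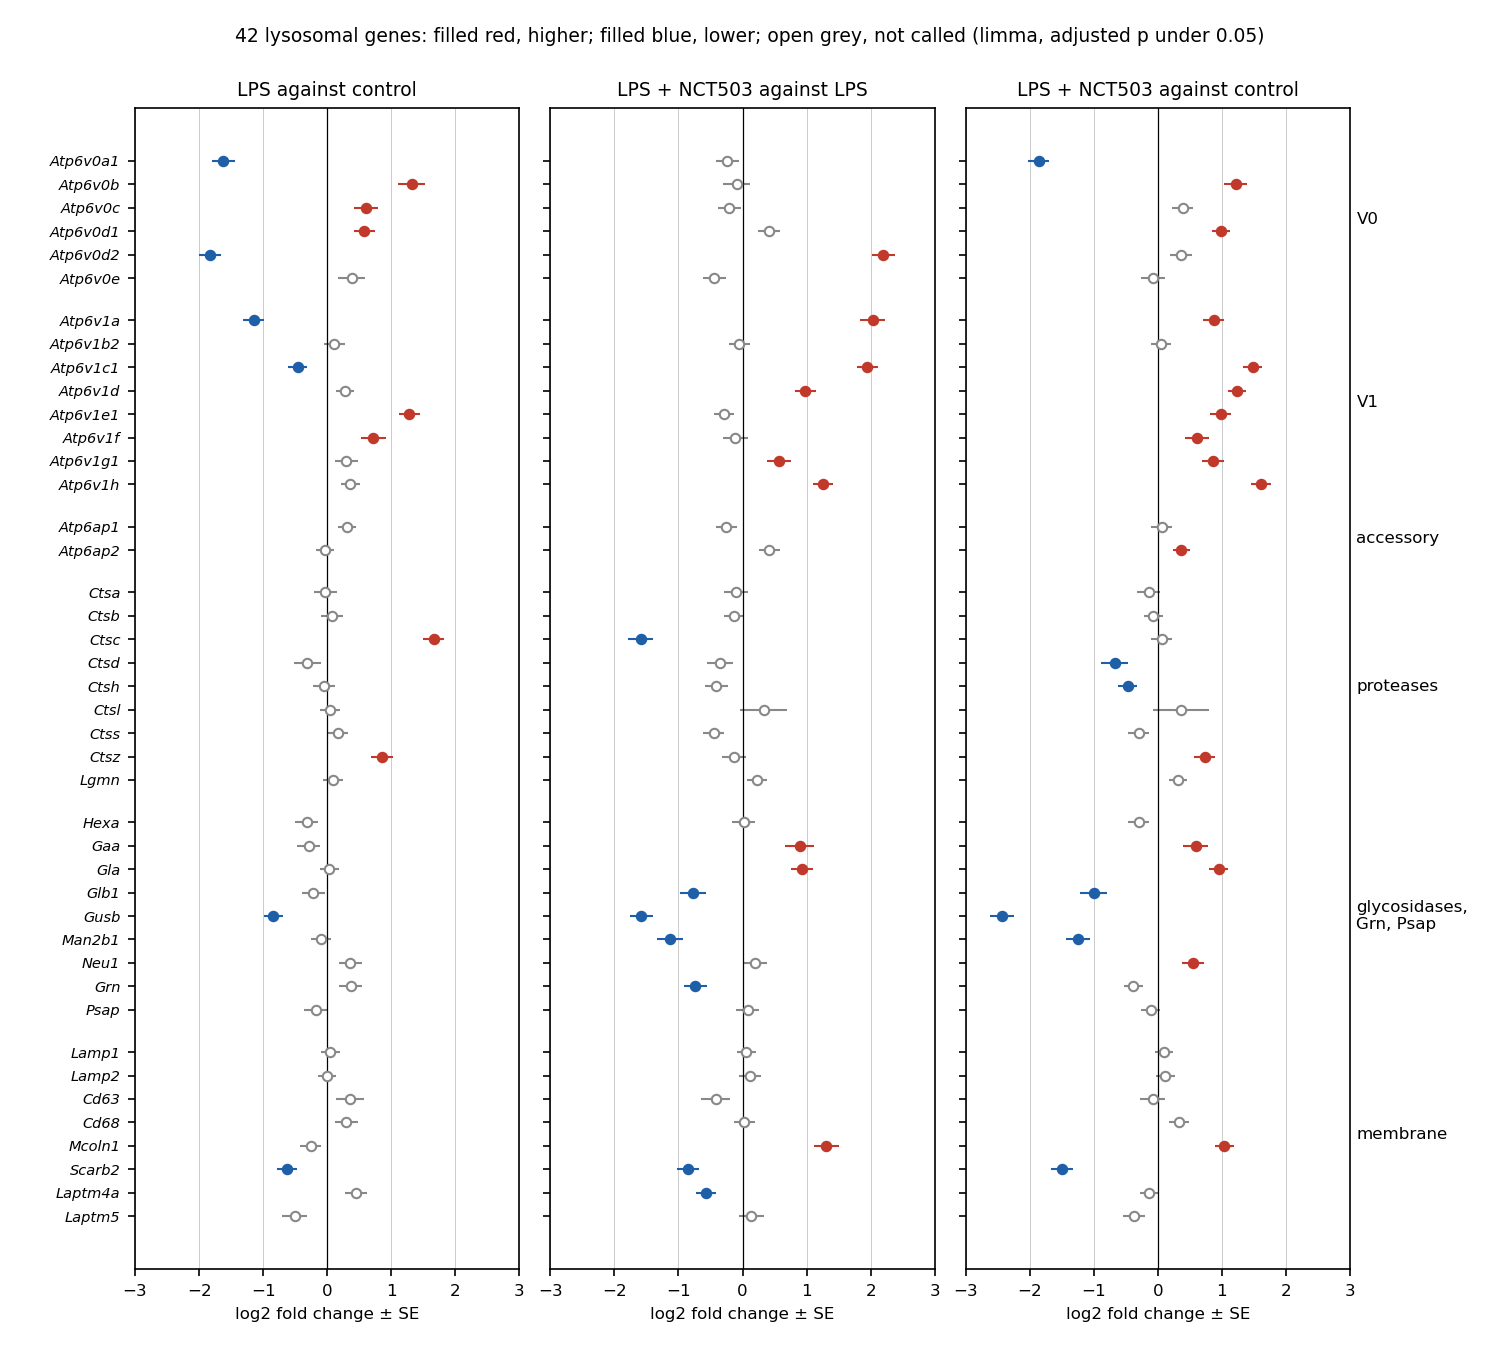
Log2 fold change of each of the 42 lysosome genes in 3 comparisons, with bars for the standard error; filled points passed an adjusted limma p of 0.05. In the comparison of LPS + NCT503 with LPS, 5 of the 8 V1 genes are called to the right of 0, with Atp6v1a at 2.03 and Atp6v1c1 at 1.95, while Gusb at -1.58 and Ctsc at -1.59 lie farthest to the left.

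Promoter sequence is shown for the genes that rose with NCT503 and carry the E-box word, and for Gusb, the gene with the largest fall against the control group. RefSeq promoters (GRCm38.p6, 250 bases before to 50 after a start site) were matched for 35 of the 42 genes; Atp6v0d2, Atp6v1b2, Atp6v1c1, Atp6v1g1, Atp6v1h, Ctsb and Ctsh were not matched. TCACGTG, searched on both strands and containing the shorter word CACGTG, was found for 12 of the 35 genes (34.3%), beside 6.49% of the 12058 tested genes with a promoter and 4.29% of all 27025 genes in the table. CACGTG alone was found for 13 of 35 (37.1%), beside 11.1% and 8.09%. Of the 5 matched genes that rose with NCT503 against LPS, 4 held TCACGTG, namely Atp6v1a, Mcoln1, Gla and Gaa, and Atp6v1d did not. Atp6v0d2, Atp6v1c1, Atp6v1g1 and Atp6v1h also rose but had no matched promoter. TCACGTG was held by 1 of the 7 that fell, Glb1, and by 7 of the 23 matched genes that were not called. Except for Gla, the stretches shown lie outside every annotated exon. For Gla only a site of 30 bases is shown, because its word lies in an annotated exon. The sequences keep the gene's own strand, 5′ to 3′, with the E-box word in capitals together with the T or A of its longer form. They are Atp6v1a (chr16:44139306-44139461, minus strand), Mcoln1 (chr8:3500269-3500456, plus), Gaa (chr11:119267713-119267886, plus), a site of 30 bases for Gla (chrX:134601182-134601211, minus) and Gusb (chr5:130003050-130003299, minus), which has no such word in this window.
Atp6v1a: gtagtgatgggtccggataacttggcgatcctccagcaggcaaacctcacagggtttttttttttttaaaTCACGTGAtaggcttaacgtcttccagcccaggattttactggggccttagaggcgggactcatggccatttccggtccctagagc
Mcoln1: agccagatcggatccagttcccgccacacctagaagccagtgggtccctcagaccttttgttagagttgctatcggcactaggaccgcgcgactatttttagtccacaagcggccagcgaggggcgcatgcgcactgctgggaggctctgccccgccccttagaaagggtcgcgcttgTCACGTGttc
Gaa: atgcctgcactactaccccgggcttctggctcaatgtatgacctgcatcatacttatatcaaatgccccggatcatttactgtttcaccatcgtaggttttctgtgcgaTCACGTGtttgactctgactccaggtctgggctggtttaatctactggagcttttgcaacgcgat
Gla: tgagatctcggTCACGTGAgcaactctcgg
Gusb: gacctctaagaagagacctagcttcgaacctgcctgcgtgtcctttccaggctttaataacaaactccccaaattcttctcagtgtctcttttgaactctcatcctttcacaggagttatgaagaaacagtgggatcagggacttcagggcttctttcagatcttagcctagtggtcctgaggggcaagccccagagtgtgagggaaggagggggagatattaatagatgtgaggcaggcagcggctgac

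The word began 131 bases before the RefSeq start site of Atp6v1a and 140 bases before that of Gaa. For Atp6v1a, that start site and the stretch shown lie inside the gene's annotated interval (chr16:44085402-44139705, minus strand), downstream of its 5′ end. Mcoln1 held the word at 71 and 45 bases and Gla at 227 and 194 bases before the start. The sequences shown hold only the site at 71 bases for Mcoln1 and the site at 194 bases for Gla. These matches describe letters in a window, and binding was not measured in these libraries.

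Among the V0 genes, LPS lowered Atp6v0a1 and Atp6v0d2 and raised Atp6v0b, Atp6v0c and Atp6v0d1, 2 lower and 3 higher of 6. Over all genes tested, 21.4% were lower and 20.5% higher. After CPM or quantile normalisation, only Atp6v0b was still called higher, beside 10.3% and 18.4% of all genes. Atp6v0e, a small membrane subunit, had 2852, 3945 and 4707 normalised reads in the control group, 3990, 5775 and 5008 with LPS, and 3672, 3730 and 3341 with LPS + NCT503. Its NCT503 libraries lay below the LPS ones, and it was not called in any comparison. Atp6v0d2 and Atp6v0d1 are alternative forms of the d subunit, which couples the rotating ring to the V1 stalk, and Atp6v0d2 is known from macrophages and osteoclasts. Atp6v0d2 (chr4:19876841-19922605, mm10) had 696, 931 and 814 normalised reads in the control group, 213, 213 and 252 with LPS, and 1080, 903 and 1139 with LPS + NCT503. All LPS libraries lay below all others, and the NCT503 libraries overlapped the control ones. LPS lowered it 3.57-fold (log2 -1.83 ± 0.17 SE, n = 3 against 3, adjusted p = 5.32e-06), and NCT503 raised it 4.59-fold over LPS (2.20 ± 0.18, adjusted p = 7.24e-06). Against the control group, LPS + NCT503 differed by 0.36 ± 0.17 (adjusted p = 0.117).

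Atp6v0d1, the widely expressed form, had 2587, 2749 and 3175 normalised reads in the control group, 3687, 4819 and 4186 with LPS, and 5649, 5862 and 5286 with LPS + NCT503, and no group overlapped another. LPS raised it by 0.58 ± 0.16 (adjusted p = 0.0111), a call lost without control replicate 2 (adjusted p = 0.0593) and turned to -0.12 after CPM. NCT503 against LPS gave 0.41 ± 0.17 (adjusted p = 0.0812), not called here and in 10 of 15 alternatives. It was called higher after CPM (0.66, adjusted p = 0.00402) and quantile normalisation (0.68, adjusted p = 0.00442). The same held in 1 fit of all libraries, with a replicate block and in edgeR. LPS + NCT503 against control gave 0.98 ± 0.14 (adjusted p = 0.00035). The ratio of Atp6v0d2 to Atp6v0d1 within a library, per kilobase, needs no scaling between libraries. It was 0.178, 0.224 and 0.169 in the control group, 0.0382, 0.0291 and 0.0397 with LPS, and 0.126, 0.102 and 0.142 with LPS + NCT503. The groups did not overlap, and LPS had the lowest ratio.

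Atp6v0a1, one form of the subunit that holds the proton path, had 6336, 8297 and 8808 normalised reads in the control group, 2142, 2970 and 2490 with LPS, and 2041, 2437 and 1938 with LPS + NCT503. The LPS and LPS + NCT503 libraries overlapped and lay below every control library. LPS lowered it 3.07-fold (log2 -1.62 ± 0.18, adjusted p = 2.33e-05), and with NCT503 it was 3.63-fold below the control (-1.86 ± 0.17, adjusted p = 1.38e-05). Atp6v0b, a subunit of the proteolipid ring, had 3938, 4989 and 5980 normalised reads in the control group, 9453, 15653 and 12162 with LPS and 11714, 12663 and 10080 with LPS + NCT503. Its LPS-treated libraries, with or without NCT503, all exceeded the control ones, by 2.49-fold with LPS (1.32 ± 0.21, adjusted p = 0.000399) and 2.33-fold with LPS + NCT503 (1.22 ± 0.18, adjusted p = 0.000359). Atp6v0c, the main ring proteolipid, had 2833, 3187 and 4055 normalised reads in the control group, 4081, 5893 and 5268 with LPS, and 4460, 4545 and 4037 with LPS + NCT503. LPS raised it by 0.60 ± 0.19 (adjusted p = 0.0221). That call was lost without LPS replicate 2 or 3 (adjusted p = 0.0787 and 0.0924) and without control replicate 1 or 2 (0.0748 and 0.0866), and it turned to -0.10 after CPM and -0.15 after quantile normalisation.

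In V1, NCT503 raised Atp6v1a, Atp6v1c1, Atp6v1d, Atp6v1g1 and Atp6v1h over LPS, 5 of 8 genes (62.5%), with a median of 0.78. Over all genes tested, 16.9% were higher. Atp6v1a encodes the catalytic A subunit that splits ATP. It lies at chr16:44085402-44139705 and had 11220, 12356 and 10893 normalised reads in the control group, 6375, 4324 and 4966 with LPS, and 23563, 17247 and 22898 with LPS + NCT503. No group overlapped another. LPS lowered it 2.22-fold (-1.15 ± 0.17, adjusted p = 0.000213), and NCT503 raised it 4.08-fold over LPS (2.03 ± 0.20, adjusted p = 2.08e-05). Against the control it was 1.83-fold higher (0.87 ± 0.16, adjusted p = 0.00155), a call lost after quantile normalisation (0.18, adjusted p = 0.397).

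Atp6v1b2, the B subunit that pairs with A in the hexamer, was not called in any comparison. After CPM and quantile normalisation, however, it was called lower with LPS (-0.59 and -0.89) and with LPS + NCT503 against control (-0.40 and -0.59). It had 8881, 11365 and 12334 normalised reads in the control group, 11229, 11499 and 12033 with LPS, and 12129, 10468 and 10974 with LPS + NCT503, and these overlapped throughout. The ratio of Atp6v1a to Atp6v1b2 per kilobase, chosen after these values were seen, was 1.11, 0.954 and 0.775 in the control group, 0.498, 0.33 and 0.362 with LPS, and 1.71, 1.45 and 1.83 with LPS + NCT503. The reads per kilobase of these genes were nearest to equal in the control libraries. The A and B subunits are present in equal number in the assembled pump, but protein was not measured here.

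**Figure D2:**
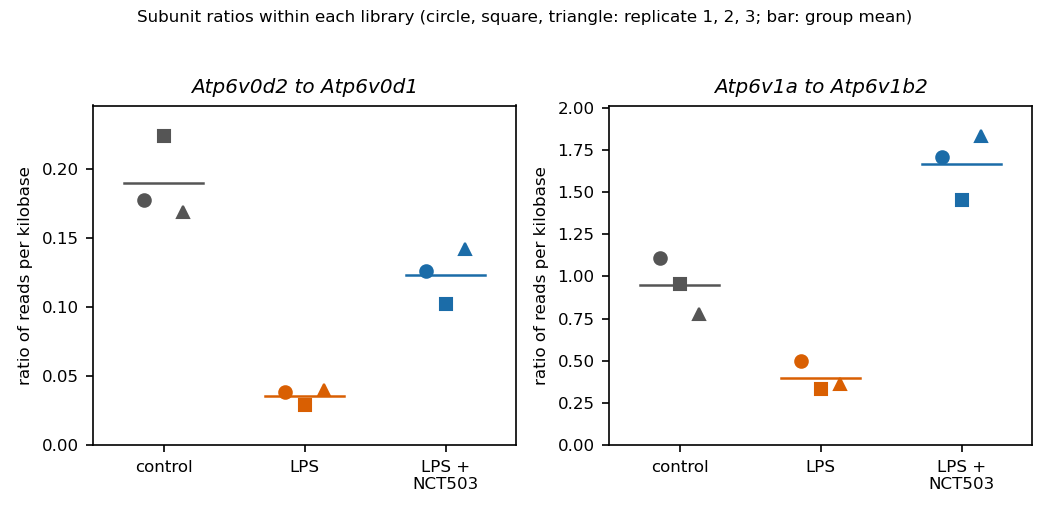
Ratio of reads per kilobase of Atp6v0d2 to Atp6v0d1 (left) and of Atp6v1a to Atp6v1b2 (right) in each of the 9 libraries, with a bar at the group mean. The first ratio averaged 0.19 in the control group, 0.0357 with LPS and 0.123 with LPS + NCT503, and the second 0.946, 0.397 and 1.66.

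Atp6v1c1 encodes the C subunit, which is released when V1 parts from V0. It had 2533, 2805 and 2822 normalised reads in the control group, 2272, 1827 and 1829 with LPS, and 8321, 6609 and 7937 with LPS + NCT503, so that the NCT503 libraries stood above all others. NCT503 raised it 3.86-fold over LPS (1.95 ± 0.17, adjusted p = 1.14e-05), and it was 2.79-fold above the control (1.48 ± 0.15, adjusted p = 2.52e-05). Its fall with LPS was smaller, -0.46 ± 0.15 (adjusted p = 0.0266), and was not called without LPS replicate 2 or 3 (adjusted p = 0.0756 and 0.11) or control replicate 2 or 3 (0.119 and 0.0826). Atp6v1h, the H subunit that restrains free V1, had 1227, 1423 and 1566 normalised reads in the control group, 1932, 1763 and 1677 with LPS, and 4396, 3978 and 4433 with LPS + NCT503. It rose 2.39-fold over LPS (1.26 ± 0.16, adjusted p = 0.000125) and 3.05-fold over the control (1.61 ± 0.15, adjusted p = 1.49e-05). Atp6v1d, a subunit of the central rotor, had 2104, 2361 and 2409 normalised reads in the control group, 2700, 2607 and 2931 with LPS and 5659, 4989 and 5612 with LPS + NCT503. It rose 1.97-fold over LPS (0.98 ± 0.16, adjusted p = 0.000671), and its NCT503 libraries were again the highest.

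Atp6v1g1, part of the peripheral stalks, had 3685, 4700 and 5376 normalised reads in the control group, 4638, 6508 and 5657 with LPS, and 7897, 9316 and 7579 with LPS + NCT503. It rose by 0.57 ± 0.18 over LPS (adjusted p = 0.0322), and its NCT503 libraries lay above all others. This call was lost without any 1 of the 3 NCT503 libraries (adjusted p = 0.0732, 0.0569 and 0.0724 without replicates 1, 2 and 3) and without LPS replicate 1 or 3 (0.0772 and 0.0974). Against the control it was 0.86 ± 0.17 higher (adjusted p = 0.00265), and after quantile normalisation 0.28 (adjusted p = 0.133).

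Atp6v1e1, its partner in the stalks, was higher in both LPS-treated groups. It had 2031, 2534 and 2845 normalised reads in the control group, 5718, 5924 and 6119 with LPS, and 4849, 5134 and 4564 with LPS + NCT503. LPS raised it 2.43-fold (1.28 ± 0.16, adjusted p = 5.79e-05). It was 1.98-fold above the control with NCT503 present (0.98 ± 0.16, adjusted p = 0.00073), and was not called between LPS + NCT503 and LPS. Atp6v1f, the other rotor subunit, had 2186, 3020 and 3424 normalised reads in the control group, 3699, 5613 and 4807 with LPS, and 3994, 5057 and 3946 with LPS + NCT503. LPS raised it by 0.72 ± 0.20 (adjusted p = 0.0147) and LPS + NCT503 by 0.61 ± 0.19 (adjusted p = 0.0279). After CPM or quantile normalisation neither was called (0.01 to 0.15). The first call was also lost without LPS replicate 2 or 3 (adjusted p = 0.0571 and 0.0678) or control replicate 1 (0.0522). The second was lost without control replicate 1 or 2 (0.0722 and 0.0636) or LPS + NCT503 replicate 1 or 3 (0.0506 and 0.0536).

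Against the control, 7 of 8 V1 genes were higher with LPS + NCT503 and none lower (median 0.93), beside 20.7% higher and 19.7% lower of all genes. After CPM 6 were higher and 1 lower, beside 12.4% and 33.3%, and after quantile normalisation 4 higher and 1 lower, beside 18% and 24%. Of the accessory genes, Atp6ap1, an assembly factor, was not called in any comparison, with 6061, 6756 and 7361 normalised reads in the control group, 8021, 8829 and 8072 with LPS, and 6554, 8325 and 6259 with LPS + NCT503. Atp6ap2, the prorenin receptor, had 3818, 3957 and 3799 normalised reads in the control group, 4143, 3513 and 3576 with LPS, and 5245, 4704 and 4987 with LPS + NCT503. It was 0.37 ± 0.13 above the control with LPS + NCT503 (adjusted p = 0.0496). That call was lost in 10 of 15 alternatives, among them leaving out control replicate 1, 2 or 3 (adjusted p = 0.0655, 0.163 and 0.123) or LPS + NCT503 replicate 1 or 3 (0.156 and 0.137), and it turned to -0.09 after CPM and -0.16 after quantile normalisation.

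**Figure D3:**
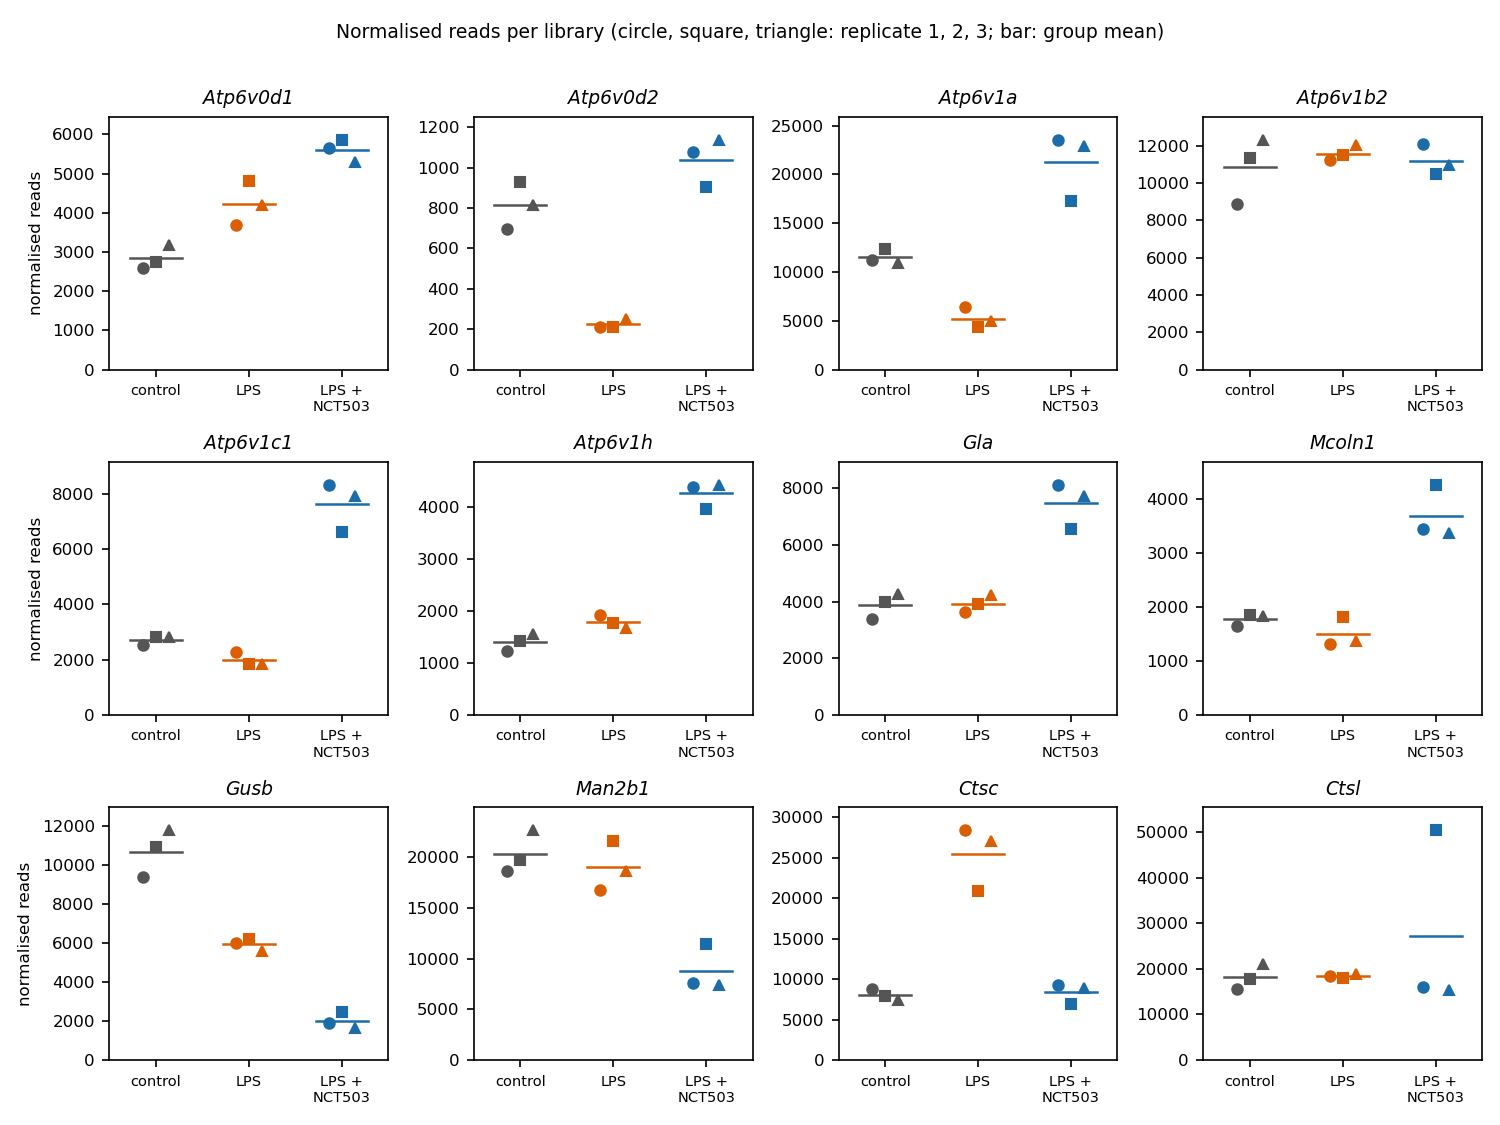
Normalised reads in each library for lysosome genes that the results turn on; each point is 1 library (circle, square and triangle for replicates 1, 2 and 3), each bar a group mean, and each vertical axis starts at 0. Atp6v0d2 and Atp6v1a were lowest with LPS, Ctsc was highest with LPS, and Gusb was lower in each group than in the one before it.

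The share of all assigned reads is scaled by the library total, as in CPM. On that scale the median of all genes tested was -0.68 with LPS against control, with 42% of them called lower, and -0.39 with LPS + NCT503 against control, with 33.3% lower, so the shares stand beside a general shift. The 16 pump genes took 0.421%, 0.456% and 0.452% of reads in the control group, 0.307%, 0.306% and 0.3% with LPS, and 0.483%, 0.477% and 0.478% with LPS + NCT503, which were the highest. The 8 V1 genes followed that order, with 0.227% to 0.246%, 0.14% to 0.159% and 0.283% to 0.309%. The other pump genes did not: V0 took 0.129% to 0.155%, 0.0973% to 0.123% and 0.118% to 0.136%, and the accessory genes 0.0628% to 0.0661%, 0.0431% to 0.0502% and 0.0512% to 0.0587%, where every NCT503 library lay below every control library. The 9 proteases took 3.26% to 3.62% in the control group, 2.33% to 2.39% with LPS and 2.29% to 2.88% with LPS + NCT503. The glycosidase list took 2.32% to 2.49%, 1.28% to 1.46% and 1.4% to 1.7%, and the membrane proteins 0.715% to 0.801%, 0.449% to 0.488% and 0.519% to 0.579%. In these last 3 lists every control library exceeded every LPS-treated library, with or without NCT503. All 42 genes together took 6.72% to 7.37%, 4.42% to 4.63% and 4.69% to 5.63% of reads. In these bulk samples, fewer cells of a type and less RNA per cell cannot be told apart.

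**Figure D4:**
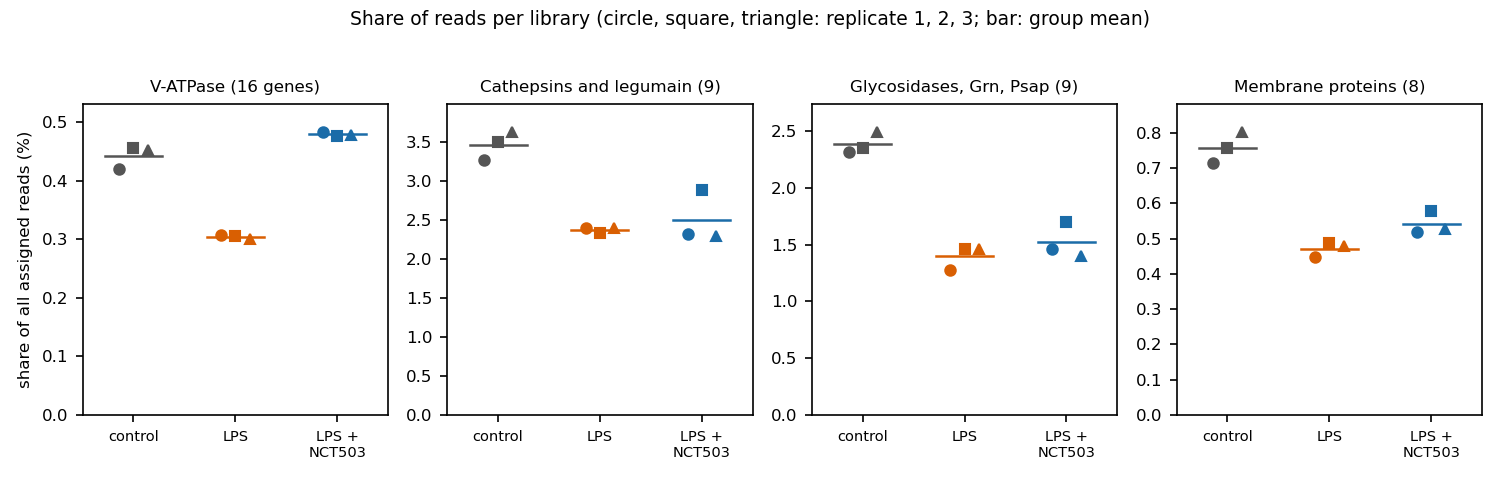
Percent of all assigned reads taken by the pump genes, the proteases, the glycosidase list and the membrane proteins in each library, with a bar at the group mean. The pump genes returned to 0.477% to 0.483% with LPS + NCT503, above the control libraries, while the other 3 lists stayed below the control libraries.

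Among the proteases, Ctsc was the only 1 of 9 genes called between LPS + NCT503 and LPS, beside 32.6% of all genes. It encodes cathepsin C, the dipeptidyl peptidase that activates serine proteases of immune granules. Ctsc (chr7:88278085-88310888) had 8721, 7904 and 7453 normalised reads in the control group, 28373, 20821 and 27097 with LPS, and 9324, 6975 and 8912 with LPS + NCT503. The LPS libraries lay above all others, and the NCT503 libraries overlapped the control ones. LPS raised it 3.16-fold (1.66 ± 0.16, adjusted p = 9.78e-06), and NCT503 lowered it 3.02-fold from there (-1.59 ± 0.19, adjusted p = 7.67e-05). Its ratio to Ctss per kilobase was 0.0292, 0.0218 and 0.019 in the control group, 0.0782, 0.0526 and 0.0667 with LPS, and 0.0339, 0.0216 and 0.0346 with LPS + NCT503.

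Ctsz, a carboxypeptidase, had 42217, 47606 and 52140 normalised reads in the control group, 71871, 98271 and 88035 with LPS, and 74348, 94279 and 68008 with LPS + NCT503. LPS raised it 1.82-fold (0.86 ± 0.17, adjusted p = 0.00185), and LPS + NCT503 lay 1.66-fold above the control (0.73 ± 0.17, adjusted p = 0.0054). Neither was called after CPM (0.16 and 0.28) or quantile normalisation. Ctsd, the main aspartic protease, had 65006, 86992 and 106904 normalised reads in the control group, 56894, 82333 and 67082 with LPS, and 48897, 66695 and 46156 with LPS + NCT503. It was 1.59-fold lower with LPS + NCT503 than in the control (-0.67 ± 0.21, adjusted p = 0.0272), although control replicate 1 lay below LPS + NCT503 replicate 2. Ctsh, an aminopeptidase, had 9279, 10075 and 11199 normalised reads in the control group, 7954, 10713 and 10989 with LPS, and 7051, 8252 and 6826 with LPS + NCT503. It differed from the control by -0.47 ± 0.15 with LPS + NCT503 (adjusted p = 0.0283). Both calls were lost without control replicate 2 or 3 (adjusted p = 0.0851 and 0.106 for Ctsd, 0.108 and 0.105 for Ctsh) and without LPS + NCT503 replicate 1 or 3 (0.0946 and 0.115 for Ctsd, 0.096 and 0.118 for Ctsh).

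Ctss, the cathepsin that trims the invariant chain of MHC class II, was not called in any comparison. It had 69895, 84653 and 91844 normalised reads in the control group, 84848, 92538 and 94964 with LPS, and 64282, 75339 and 60140 with LPS + NCT503. The NCT503 libraries lay below the LPS libraries (adjusted p = 0.0534), a difference called without LPS + NCT503 replicate 2 (adjusted p = 0.0224) or LPS replicate 1 (0.0327). Ctss was also called lower with a pseudocount of 0.1 (0.0489), in 1 fit of all libraries (0.0367), with a replicate block (0.0436) and in DESeq2 (0.0349). Lgmn, the asparaginyl endopeptidase that matures several cathepsins, had 46046, 48684 and 55702 normalised reads in the control group, 46440, 57928 and 55020 with LPS, and 60173, 67083 and 59452 with LPS + NCT503. Its NCT503 libraries were the highest, and it was not called in any comparison. After CPM and quantile normalisation, Lgmn was called lower with LPS (-0.62 and -0.89) and higher with NCT503 against LPS (0.48 and 0.57).

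Ctsl, a cysteine endopeptidase, rests on 1 library. It had 15506, 17866 and 21146 normalised reads in the control group, 18464, 17994 and 18895 with LPS, and 15948, 50432 and 15371 with LPS + NCT503. LPS + NCT503 replicate 2 was thus the highest of all 9 libraries, and the other two were near the lowest control value. With it, NCT503 against LPS gave 0.33 ± 0.37 (adjusted p = 0.524), and without it -0.23 (adjusted p = 0.26). Against the control the values were 0.36 ± 0.44 with it and -0.20 without it (adjusted p = 0.332). The remaining proteases, Ctsa, the carboxypeptidase that protects 2 glycosidases, and Ctsb, a cysteine protease, ranged over the 9 libraries from 20225 to 30094 and from 208285 to 267460 normalised reads and were not called.

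In the glycosidase list, the genes parted with NCT503: Gla and Gaa rose, and Gusb, Man2b1, Glb1 and Grn fell. Over all genes tested, 16.9% rose and 15.7% fell. Gusb, beta-glucuronidase, lies at chr5:129989011-130003049. It had 9397, 10918 and 11798 normalised reads in the control group, 6000, 6231 and 5590 with LPS, and 1885, 2468 and 1657 with LPS + NCT503. No group overlapped another. LPS lowered it 1.79-fold (-0.84 ± 0.15, adjusted p = 0.000803) and NCT503 by a further 3-fold (-1.58 ± 0.18, adjusted p = 6.67e-05), to 5.39-fold below the control (-2.43 ± 0.18, adjusted p = 2.94e-06).

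Gla, alpha-galactosidase A, which clears globotriaosylceramide, went the other way with NCT503. It had 3377, 3976 and 4259 normalised reads in the control group, 3631, 3919 and 4242 with LPS, and 8124, 6575 and 7729 with LPS + NCT503. Control and LPS overlapped, and NCT503 raised it 1.90-fold over LPS (0.93 ± 0.17, adjusted p = 0.00137) and 1.93-fold over the control (0.95 ± 0.15, adjusted p = 0.000719). The ratio of Gla to Gusb per kilobase was 0.501, 0.507 and 0.503 in the control group, 0.843, 0.876 and 1.06 with LPS, and 6, 3.71 and 6.5 with LPS + NCT503. This ratio was chosen after the values were seen. Gaa, which breaks down lysosomal glycogen, had 5612, 6392 and 7193 normalised reads in the control group, 4308, 6517 and 4952 with LPS, and 8934, 12480 and 7950 with LPS + NCT503. It rose 1.86-fold over LPS (0.89 ± 0.22, adjusted p = 0.00873). Its rise over the control, 0.59 ± 0.19 (adjusted p = 0.0286), was lost without control replicate 1 or 2 (adjusted p = 0.0731 and 0.0861), without LPS + NCT503 replicate 1 (0.053) and after TMM, CPM or quantile normalisation (0.52, 0.14 and 0.01).

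Man2b1, lysosomal alpha-mannosidase, had 18653, 19766 and 22663 normalised reads in the control group, 16802, 21566 and 18638 with LPS, and 7606, 11443 and 7360 with LPS + NCT503. Its NCT503 libraries lay below all others, 2.19-fold below LPS (-1.13 ± 0.20, adjusted p = 0.0014) and 2.35-fold below the control (-1.24 ± 0.19, adjusted p = 0.000472). Glb1, beta-galactosidase, had 2220, 2873 and 3401 normalised reads in the control group, 2101, 2639 and 2446 with LPS, and 1256, 1800 and 1209 with LPS + NCT503. It fell 1.70-fold from LPS (-0.77 ± 0.20, adjusted p = 0.0112), a call lost without LPS + NCT503 replicate 1 or 3 (adjusted p = 0.0518 and 0.0652) or LPS replicate 3 (0.0529), and it was 1.99-fold below the control (-1.0 ± 0.21, adjusted p = 0.00322).

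Neu1, the sialidase that works in a complex with Glb1 and Ctsa, was not called with NCT503 against LPS. It had 3199, 3928 and 4337 normalised reads in the control group, 4133, 5951 and 4656 with LPS, and 5481, 6373 and 4848 with LPS + NCT503, and was called higher against the control only (0.55 ± 0.17, adjusted p = 0.0254). That call was lost without control replicate 1 or 2 (adjusted p = 0.0643 and 0.0764), without LPS + NCT503 replicate 1 (0.0662) and after CPM (0.09, adjusted p = 0.602) or quantile normalisation (0.03, adjusted p = 0.909). Grn, progranulin, a cofactor of lysosomal enzymes, had 61049, 72867 and 79318 normalised reads in the control group, 76346, 106999 and 92314 with LPS, and 55263, 58893 and 49064 with LPS + NCT503. NCT503 lowered it 1.68-fold from LPS (-0.74 ± 0.18, adjusted p = 0.00795), a call lost without LPS + NCT503 replicate 3 (adjusted p = 0.0537). Hexa, a subunit of beta-hexosaminidase, had 16089, 19640 and 23143 normalised reads in the control group, 13243, 18317 and 15294 with LPS, and 14910, 18308 and 14257 with LPS + NCT503, which overlapped, and it was not called. Psap, the precursor of the saposins, was likewise not called, and with 92652 normalised reads per kilobase in the control group it had the highest level of the 42 genes in all 3 groups.

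Of the 8 membrane proteins, NCT503 raised Mcoln1 and lowered Scarb2 and Laptm4a, beside 16.9% higher and 15.7% lower of all genes. Mcoln1 encodes the lysosomal calcium channel TRPML1 and lies at chr8:3500457-3515232. It had 1650, 1847 and 1832 normalised reads in the control group, 1317, 1800 and 1356 with LPS, and 3439, 4252 and 3355 with LPS + NCT503. The control and LPS libraries overlapped, and NCT503 raised it 2.48-fold over LPS (1.31 ± 0.19, adjusted p = 0.000294) and 2.06-fold over the control (1.04 ± 0.15, adjusted p = 0.000326). Scarb2, or LIMP-2, the receptor that carries glucocerebrosidase to lysosomes, had 3606, 2669 and 2784 normalised reads in the control group, 1907, 1718 and 2189 with LPS, and 1219, 987 and 1012 with LPS + NCT503. Like Gusb it fell in both steps without overlap, by 0.63 ± 0.16 on the log2 scale with LPS (adjusted p = 0.0093) and 1.80-fold with NCT503 (-0.85 ± 0.17, adjusted p = 0.00319), to 2.80-fold below the control (-1.49 ± 0.17, adjusted p = 6.01e-05).

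Laptm4a, a small membrane-spanning protein, had 10807, 12478 and 14591 normalised reads in the control group, 14715, 18590 and 18027 with LPS, and 11549, 11819 and 10981 with LPS + NCT503. NCT503 lowered it by 0.57 ± 0.16 on the log2 scale from LPS (adjusted p = 0.0205), and its NCT503 and control libraries overlapped. That call was lost without LPS + NCT503 replicate 1 or 3 (adjusted p = 0.0628 and 0.0923), without LPS replicate 2 or 3 (0.0626 and 0.0976) and after CPM (-0.33, adjusted p = 0.0763). Lamp1 and Lamp2, the main glycoproteins of the lysosomal membrane, the tetraspanin Cd63, the macrophage sialomucin Cd68 and Laptm5 were not called in any comparison. After CPM and quantile normalisation, Lamp1 (-0.65 and -1.12), Lamp2 (-0.70 and -0.97) and Cd68 (-0.40 and -0.75) were called lower with LPS. Cd63 was called lower with LPS after quantile normalisation (-0.72) but not after CPM. Lamp1 ranged from 25048 to 29770 normalised reads in the control group, 25332 to 29151 with LPS and 27774 to 29655 with LPS + NCT503. Cd63 had 11651, 14948 and 17955 normalised reads in the control group, 13915, 23138 and 19953 with LPS, and 12661, 17515 and 11971 with LPS + NCT503, and all groups overlapped. Cd68 had 15064, 19266 and 21515, then 19763, 25401 and 23145, then 23840, 24095 and 21648 normalised reads, and every NCT503 library exceeded every control library. Laptm5 had 29812, 38583 and 43534, then 21248, 32132 and 25331, then 27341, 31036 and 27460 normalised reads. Its lack of a call with LPS held in 6 of 15 alternatives only, and in the others it was called lower, among them edgeR (-0.56, adjusted p = 0.0331) and DESeq2 (-0.50, adjusted p = 0.0374).

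The uncalled genes lay between -0.51 and 0.45 with LPS against control, between -0.45 and 0.42 with LPS + NCT503 against LPS, and between -0.38 and 0.39 with LPS + NCT503 against control. Of those uncalled with LPS, 26 were called lower after CPM and 25 after quantile normalisation, beside 42% and 23% of all genes. Of those uncalled with LPS + NCT503 against control, 14 and 15 were called lower, beside 33.3% and 24%. Every called gene had groups that did not overlap, except Ctsd against the control. With 3 libraries in a group such separation is likely for any called gene, and its share over all genes is not given. Some uncalled genes also had no overlap, among them Atp6v1d, Atp6v1h, Atp6ap1 and Laptm4a with LPS. In the authors' deposited tables of the first 2 comparisons, 8 of the 42 genes were higher and 7 lower with LPS, and 10 higher and 8 lower with NCT503 against LPS, at their adjusted p under 0.05, which 33.9% and 27.4% of all listed genes met. In each of the 2 comparisons, 40 of the 42 genes had the call given here. The others were called by the authors only, Laptm4a and Laptm5 with LPS, and Atp6ap2 and Ctss with NCT503 against LPS. Exons of 12 of the 42 genes overlap another annotated gene, and whether counting used strand is not given in the sources used here. They are Atp6v0b, Atp6v1e1, Atp6v1h, Ctsa, Ctsb, Ctsd, Ctsl, Ctsz, Hexa, Glb1, Grn and Lamp1, and reads in the shared stretches cannot be told apart from those of the neighbour.

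**Figure D5:**
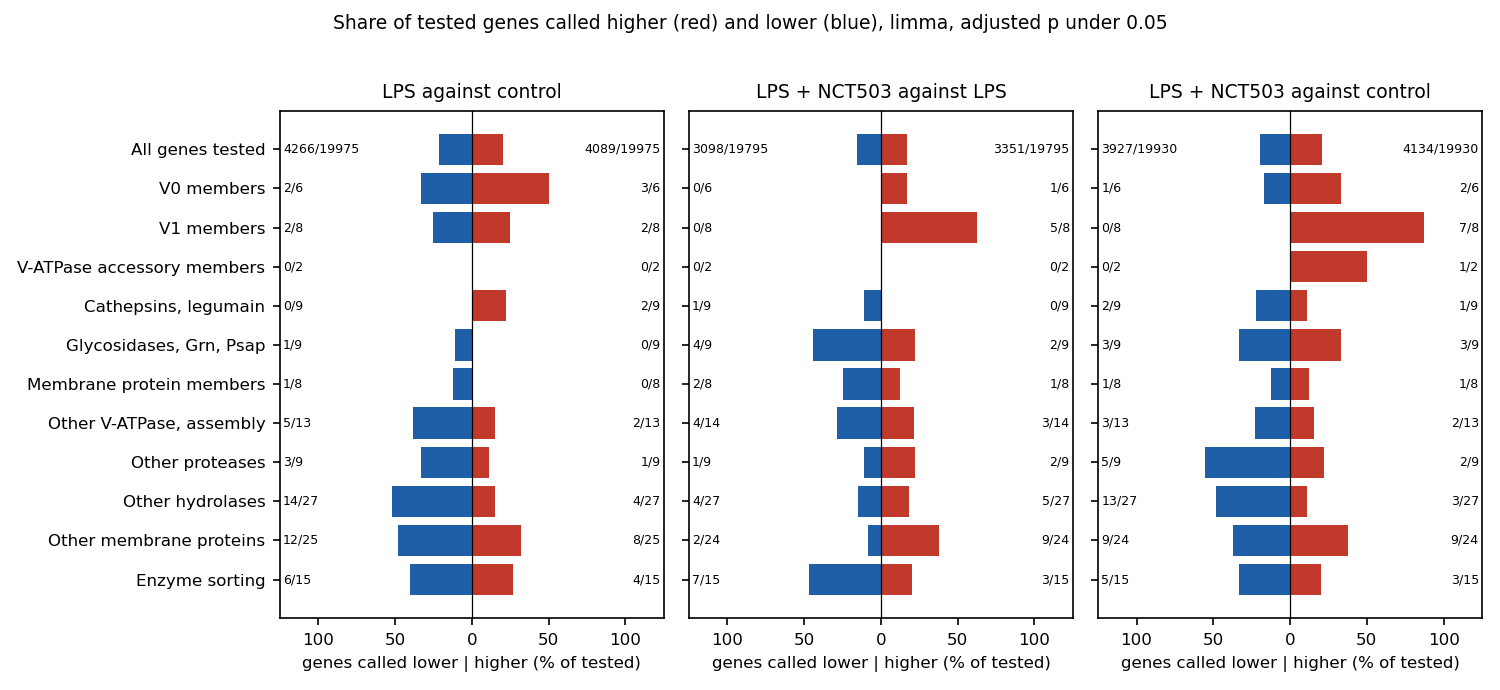
Percent of each list called higher (right of 0) and lower (left of 0) in the 3 comparisons, with the number called over the number tested, beside the same percent over all genes tested. In the comparison of LPS + NCT503 with LPS, 5 of 8 V1 genes were higher and none lower, against 16.9% and 15.7% of all genes.

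Other genes of the lysosome were taken from lists of names. Among 14 further tested pump subunits and assembly factors, NCT503 raised 3 and lowered 4 relative to LPS (21.4% and 28.6%), beside 16.9% and 15.7% of all genes. The 3 that rose were Wdr7, Dmxl1 and Dmxl2, the rabconnectin proteins that help V1 join V0. Wdr7 had 1257, 1180 and 1159 normalised reads in the control group, 334, 233 and 262 with LPS, and 1250, 1008 and 1159 with LPS + NCT503. It thus fell with LPS (-2.12 ± 0.17, adjusted p = 1.51e-06) and rose with NCT503 (2.05 ± 0.19, adjusted p = 1.65e-05). Dmxl2 had 991, 676 and 474, then 552, 229 and 279, then 3818, 2088 and 4106 normalised reads, so that its NCT503 libraries were the highest (3.28 ± 0.33 over LPS, adjusted p = 2.62e-05). Dmxl1 rose by 2.39 ± 0.33 over LPS (adjusted p = 0.000255). Tcirg1, the a3 form of the V0 a subunit, rose with LPS by 1.38 ± 0.18 (adjusted p = 7.41e-05), which was lost after quantile normalisation.

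Among 27 further hydrolases, LPS raised 4 and lowered 14 (median -0.46), beside 20.5% higher and 21.4% lower of all genes. NCT503 raised 5 and lowered 4 relative to LPS (18.5% and 14.8%, median 0.05), near the 16.9% and 15.7% of all genes. Lipa, lysosomal acid lipase, had 25277, 27598 and 29540 normalised reads in the control group, 7639, 7586 and 7033 with LPS, and 29334, 25243 and 27180 with LPS + NCT503, where control and NCT503 overlapped. NCT503 raised it 3.67-fold over LPS (1.88 ± 0.16, adjusted p = 7.25e-06), and it raised Pla2g15, a lysosomal phospholipase, 5.36-fold (2.42 ± 0.19, adjusted p = 5.29e-06). Sgsh, the heparan sulfatase sulfamidase, fell from 2485, 2767 and 3053 normalised reads to 118, 117 and 117 with LPS and had 360, 561 and 371 with LPS + NCT503, 6.53-fold below the control (-2.71 ± 0.19, adjusted p = 2.52e-06). Of 9 further proteases, 1 was higher and 3 lower with LPS, beside 20.5% and 21.4% of all genes. With NCT503 against LPS, 2 were higher and 1 lower, beside 16.9% and 15.7% of all genes.

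Of 24 further membrane proteins tested, 9 rose and 2 fell with NCT503 against LPS (37.5% and 8.33%, median 0.32), beside 16.9% and 15.7% of all genes. Of 25 tested with LPS, 8 rose and 12 fell (32% and 48%, median -0.98), beside 20.5% and 21.4% of all genes, and after CPM 2 were higher and 16 lower, beside 10.3% and 42%. Ctns, the cystine exporter, had 836, 863 and 892 normalised reads in the control group, 188, 181 and 198 with LPS, and 1519, 1461 and 1482 with LPS + NCT503, and no group overlapped another. NCT503 raised it 7.84-fold over LPS (2.97 ± 0.16, adjusted p = 4.39e-07). Tpcn1, an endolysosomal cation channel, had 3904, 4522 and 5039, then 218, 241 and 240, then 302, 364 and 360 normalised reads, below the control in every LPS library (log2 -4.25 ± 0.15, adjusted p = 3.31e-09) and in every LPS + NCT503 library. Slc15a3, a transporter of histidine and peptides, rose 9.36-fold with LPS (3.23 ± 0.18, adjusted p = 7.68e-08). Of 15 genes that sort enzymes to the lysosome, 3 rose and 7 fell with NCT503 against LPS (20% and 46.7%, beside 16.9% and 15.7% of all genes), with Gga2, an adaptor for mannose 6-phosphate receptors, at 1.99 ± 0.18 (adjusted p = 1.49e-05) and Ap1s1, a clathrin adaptor subunit, at -1.53 ± 0.21 (adjusted p = 0.000251). After CPM, 4 of these 15 rose and 2 fell, beside 22.3% and 10.8% of all genes.

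Markers of other cells moved with NCT503 as well. The summed normalised reads of 9 neutrophil markers were 4490 to 7607 in the control group, 2799 to 6259 with LPS and 481 to 1173 with LPS + NCT503, with Cxcr2 at 0 in the last, and 8 of 9 were called lower against LPS. Cxcr2 was low in every group, at 6.91, 8.18 and 7.87 normalised reads with LPS. The 6 mast cell and basophil markers found summed to 747 to 890, 962 to 1376 and 313 to 339, all 6 lower. Eosinophil markers summed to 383 to 547, 501 to 772 and 34 to 57, with Epx, Ear1 and Ear6 at 0 with NCT503. Ear1 and Ear6 were near 0 in every group, with at most 4.01 and 4.81 normalised reads in a library. The sum in the control and LPS groups came mostly from Prg2, at 355, 526 and 607 with LPS and 3.06, 2.08 and 6.49 with LPS + NCT503. Of the macrophage markers, 7 of 10 were lower and 0 higher with NCT503 against LPS. Fibroblast and stromal markers summed to 6028 to 27673, 17601 to 37838 and 18029 to 44859, highest in LPS + NCT503 replicate 2, and osteoclast markers to 3306 to 3549, 4799 to 7019 and 3028 to 4216. The stromal sum came mostly from Col1a1 and Col1a2. With NCT503 against LPS, 1 of 10 stromal markers was higher and 3 were lower, and of 6 osteoclast markers tested 1 was higher and 2 lower. Over all genes the shares were 16.9% higher and 15.7% lower. The part of these cells in the lysosome gene results was not tested.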

How the data were processed

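RNA sequencing was analysed for 9 libraries in 3 groups of 3. Reads were mapped to mm10 and TopHat2 was among the tools, per the submitters' processing notes; which counter was used, and whether by strand, is not stated in the labels or headers. The deposited expression values are a signal, read counts divided by a size factor per table, and whole reads were recovered for 100% of values (tolerance 0.001). The authors' log2 fold changes and p-values were in the deposited tables for 2 comparisons, and gene length was in both. Genes with a mean of at least 1 normalised read in either group were tested with limma 3.58.1 (R 4.3.3; trend and robust) on log2(value + 1), with Benjamini-Hochberg adjustment over all genes. Folds on that scale understate changes of low genes. LPS + NCT503 against control used a joint scale for the 21434 shared genes. The planned test for raw counts was replaced because the unit is a signal; edgeR 4.0.16 and DESeq2 1.42.0 ran on the recovered reads as alternatives. Other alternatives were a pseudocount of 0.1, no filter, TMM, CPM and quantile scaling, 1 fit of all 9 libraries, a replicate block and leaving out each library. The tests were also run on simulated reads in which a small set of genes changed evenly in both directions, with the same noise setting throughout. Such data hold no general shift, so that run cannot check how the counts depend on scaling.

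The 42 genes, the other lists and the tests were chosen with earlier results of these data known. All 42 genes are accounted for, and library values are given for up to 4 genes with the smallest p in each role list and comparison and for Atp6v0d1 and Atp6v0d2. From each further list up to 3 genes with the smallest p could be named. Atp6v1b2, Ctsl, Gaa and Atp6v1g1 were given in full where they fell outside this rule, after their values were seen. Sequences came from RefSeq promoters of GRCm38.p6 and exons from GENCODE release M21.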

Additional observations from a re-analysis of the deposited data

How the results depend on the processing

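With LPS against control, the 7 higher and 6 lower genes became 3 and 32 after CPM and 3 and 31 after quantile normalisation. With NCT503 against LPS, quantile normalisation gave 15 higher, and leaving out 1 library gave 8 to 9 higher and 4 to 11 lower (11 without LPS replicate 1, 4 without LPS + NCT503 replicate 3). With LPS + NCT503 against control, quantile normalisation gave 8 higher, and the lower genes numbered 21 after CPM and 22 after quantile normalisation. Leaving out 1 library gave 5 to 9 higher and 5 to 7 lower with LPS, and 11 to 16 higher and 5 to 10 lower with LPS + NCT503 against control. Among the fits that left out 1 library, shares over all genes are given only for LPS + NCT503 replicate 2. The ranges are therefore not read as particular to the lysosome genes. Without LPS replicate 1, the genes added below LPS with NCT503 were Ctss, Atp6v0e, Ctsh and Cd63. Leaving out 1 library also added Laptm4a, Cd63 and Laptm5 with LPS, Atp6ap2 with NCT503 against LPS, and Laptm5, Grn, Ctss, Atp6v0c and Atp6v0d2 against the control. Other settings called several of these too: with LPS, Laptm5 was lower after TMM, CPM and quantile scaling, in 1 fit of all libraries, with a replicate block, in edgeR and in DESeq2, while Laptm4a was higher in the joint fit, the block and DESeq2 but lower after CPM and quantile scaling (-0.26 and -0.61). Atp6ap2 was higher with NCT503 against LPS after CPM and quantile scaling, in the joint fit, the block, edgeR and DESeq2. Atp6v0d1 was higher in the same settings except DESeq2.

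Some directions turned, and those given here are not all of them. With LPS, Atp6v0c gave -0.10 after CPM and -0.15 after quantile normalisation, and Atp6v0d1 gave -0.12 after each. Ctsl with LPS gave -0.07 after TMM, -0.66 after CPM, -1.02 after quantile normalisation, -0.02 in edgeR and -0.07 without control replicate 1. Several uncalled genes above the control with LPS were called lower after CPM and after quantile normalisation. Among them were Atp6v1d (0.27, then -0.44 and -0.34) and Atp6ap1 (0.31, then -0.39 and -0.60). Neu1 (0.36, then -0.34 and -0.42) and Cd68 (0.30, then -0.40 and -0.75) turned likewise. Leaving out 1 library, Ctsl ranged from -0.07 to 0.16 with LPS, from -0.23 to 0.62 with NCT503 against LPS and from -0.20 to 0.65 against the control, each of the last 2 low values being without LPS + NCT503 replicate 2. Against the control, Atp6ap2 gave -0.09 and -0.16 and Ctsl -0.09 and -0.32 after CPM and quantile normalisation, and Atp6v0d2 gave -0.09 after CPM. In the same comparison, Cd68 turned from 0.33 to -0.40 and Lamp1 from 0.10 to -0.71 after quantile normalisation, both called lower. The cause was not tested. Leaving out LPS + NCT503 replicate 2 was chosen for all counts after seeing the data.

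Same-numbered libraries did not deviate together in every pair (correlations -0.233 to 0.40), and not every library correlated best with its own number, so the numbers were not taken as pairs. With a replicate block, 15 genes were higher and 9 lower with LPS (24% and 24.7% of all genes), 11 and 11 with NCT503 against LPS (21.5% and 19.9%), and 14 and 7 against the control (20.7% and 19.9%). In edgeR these counts were 7 and 7, 11 and 7, and 15 and 8, and in DESeq2 8 and 7, 10 and 8, and 15 and 7. Shares over all genes are not given for edgeR and DESeq2, so these counts are not read as particular to the lysosome genes. The 3 libraries in a group limit the precision, and its dependence on depth was not tested.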
